A study of Mus musculus with 6 samples.

Results

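The epithelial keratins described here were 10 genes, Krt5, Krt7, Krt8, Krt14, Krt15, Krt18, Krt19, Krt20, Krt23 and Krt80, chosen by symbol from the 55450 genes of the count table, and all 10 were found in it. Their mRNA was measured in kidney tissue of male wild-type C57BL/6J mice, 7 weeks old on arrival and kept for 1 week before the study. The day 0 and day 21 groups were sequenced, with 3 mice each. The day-21 group was gavaged daily with 0.16 g of adenine per kg of body weight, mixed with 2.4 g per kg of potassium oxonate, a combination that raises serum uric acid and injures the kidney. The day-0 mice are the control, labelled with 20% PEG as their treatment, and no vehicle is named for the day-21 group. Adenine and oxonate were always given together, so the effects of the 2 agents cannot be told apart, and the groups also differ in time.

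Keratins are the intermediate filament proteins of epithelial cells. A filament is built from pairs of a type I and a type II chain, so the cell needs both. Krt8 and Krt18 form the pair of simple epithelia such as renal tubules, Krt7 and Krt19 are found in ducts and in the transitional epithelium of the renal pelvis and bladder, Krt20 is found in intestine and in the surface cells of that transitional epithelium, and Krt5, Krt14 and Krt15 mark basal cells of stratified epithelia. Keratin filaments are anchored to neighbouring cells at desmosomes and to the basement membrane at hemidesmosomes, and simple keratins are known to be induced when epithelia are injured.

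The 6 libraries held between 10963849 and 14333311 counts, and 3 counts, taken as the detection floor, stood for 0.179 to 0.309 CPM (the count scaled by the effective library size). Such floors cover counting error only. Kidney markers were present in all 6 mice, with Slc34a1 of the proximal tubule at a mean of 4862 CPM on day 0 and 879 on day 21, Umod of the thick ascending limb at 4670 and 3413, and Nphs1 of podocytes at 41.1 and 21.0. One control library, day 0 replicate 1, stood apart from the other day-0 mice in several of the keratins below (Krt20, Krt5 and Krt15). Fold changes and ratios that rest on it are given with and without it.

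Keratin mRNA was mostly upregulated in the day-21 group. Of the 10 keratins, 6 were called higher (Krt20, Krt19, Krt18, Krt15, Krt8 and Krt7), 1 was called lower (Krt80) and 3 were not called (Krt5, Krt14 and Krt23). A gene was called when its fold exceeded 1.5 and its adjusted p in the edgeR quasi-likelihood fit (Benjamini-Hochberg, 16592 genes) was under 0.05. Of all genes tested, 19.6% were called higher and 15.5% lower, 35.1% in all. All 10 keratins passed the filter on low counts, and their median log2 fold change was 1.31, beside 0.03 over all genes tested. Krt5, Krt14, Krt15 and Krt20 had under 10 counts in at least 1 day-0 mouse and passed only with the day-21 mice. Passing in this way can favour a rise, so the median and the counts of this paragraph are not free of the filter. In 7 keratins every day-21 mouse lay above every day-0 mouse, which held for 30.7% of all genes tested, and in 1 every day-21 mouse lay below, which held for 26.4%. The numbers called were also 6 and 1 without day 0 replicate 1. With library size alone as the scaling, 7 keratins were called higher and 0 lower, and the calls over all genes split into 5985 higher and 1338 lower, against 3249 and 2572 here. In bulk tissue a change in the number of cells of a type and a change in RNA per cell cannot be told apart.

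**Figure D1:**
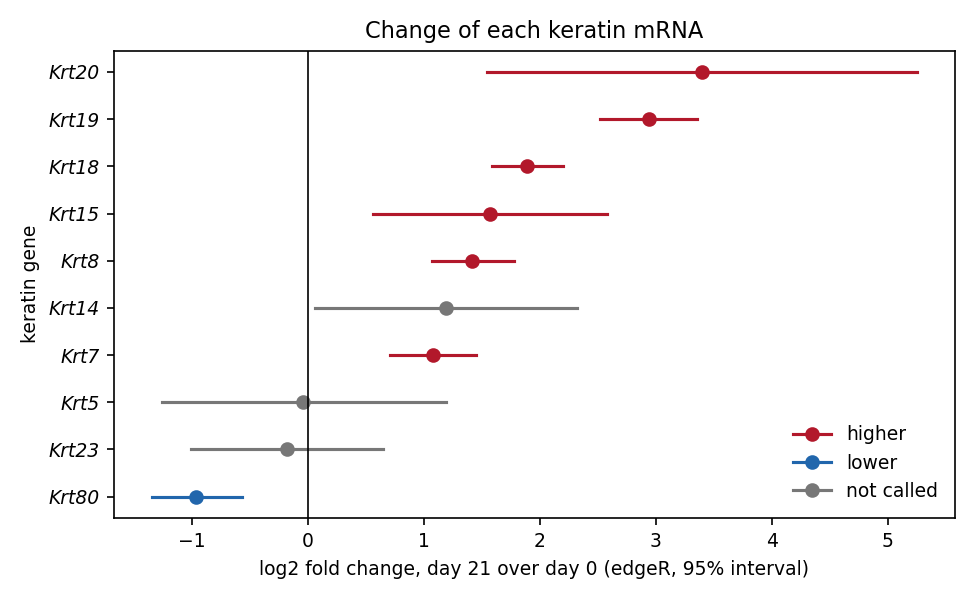
Log2 fold change of each keratin (day 21 over day 0, points) with its 95% interval from edgeR (lines), coloured by call. Krt20, at 3.40, has the widest interval (1.55 to 5.25), and Krt80 is the only keratin called lower, at -0.96.

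The genes lie in the 2 keratin clusters of the mouse genome, 5 on chromosome 11 (Krt14, Krt15, Krt19, Krt20 and Krt23, all type I) and 5 on chromosome 15 (the type II genes Krt5, Krt7, Krt8 and Krt80, and Krt18). Krt18 is the type I gene that lies among the type II genes, and in GRCm38 its start at 102028180 is 23697 bases from the end of Krt8 at 102004482. RefSeq (GRCm38.p6) gave a promoter window, 250 bases before to 50 after the start, for 7 of the 10 keratins, with none for Krt15, Krt19 and Krt80. To set 2 keratins that rose beside 2 that were not called, the bases before both the RefSeq and the GENCODE start are shown 5′ to 3′ on the strand of the gene. They are chr15:102027966-102028179 (forward strand) for Krt18, chr11:99438154-99438403 (reverse strand) for Krt20, chr15:101712906-101713155 (reverse strand) for Krt5 and chr11:99493138-99493370 (reverse strand) for Krt23. Capitals mark matches to the motifs described next.
Krt18: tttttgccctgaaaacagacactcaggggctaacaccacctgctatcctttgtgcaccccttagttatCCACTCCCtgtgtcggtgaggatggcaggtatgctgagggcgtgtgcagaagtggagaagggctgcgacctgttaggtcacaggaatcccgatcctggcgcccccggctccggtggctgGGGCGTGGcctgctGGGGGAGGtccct
Krt20: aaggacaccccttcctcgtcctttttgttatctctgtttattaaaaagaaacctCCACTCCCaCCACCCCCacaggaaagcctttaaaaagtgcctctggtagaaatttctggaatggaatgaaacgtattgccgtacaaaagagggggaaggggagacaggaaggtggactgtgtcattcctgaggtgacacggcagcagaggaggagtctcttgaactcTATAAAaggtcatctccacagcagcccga
Krt5: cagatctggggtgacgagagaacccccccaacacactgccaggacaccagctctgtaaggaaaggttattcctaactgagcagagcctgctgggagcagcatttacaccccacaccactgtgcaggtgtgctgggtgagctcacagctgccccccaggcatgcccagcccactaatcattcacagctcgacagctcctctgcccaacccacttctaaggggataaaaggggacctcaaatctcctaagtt
Krt23: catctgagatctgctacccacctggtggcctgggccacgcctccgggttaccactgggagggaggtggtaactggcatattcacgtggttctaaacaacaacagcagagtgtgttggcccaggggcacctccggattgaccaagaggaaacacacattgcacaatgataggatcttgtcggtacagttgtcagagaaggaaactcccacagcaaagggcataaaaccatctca

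Both strands of all 32851 windows were searched for 5 motifs. The TATA box was searched as TATAAA. Sites known to be bound by Sp and Klf factors were searched as GGGCGG. Other sites of Klf factors were searched as CCNCNCCC, whose matches can overlap the previous ones. The AP-1 site was searched as TGANTCA. The site of Grhl factors was searched as AACCGGTT. CCNCNCCC occurred in the windows of Krt7, Krt8, Krt18 and Krt20, all called higher, and in none of Krt5, Krt14 and Krt23, which were not called, against 49.5% of all windows. This is no split by the size of the change, since the log2 fold change of Krt14 (1.19) was above that of Krt7 (1.08). TATAAA occurred in the windows of Krt8 and Krt20 (13.6% of all windows) and GGGCGG in that of Krt7 (35.7%). In Krt8 the TATAAA matches began at -3 and -1 and ran across the RefSeq start, and in Krt20 the match began at -29. Only exact letters were counted, so a window without TATAAA may still hold similar letters. The AP-1 letters (7.81%) and the Grhl letters (0.146%) were in none of the 7 windows, which says only that these letters are not there. These matches are descriptions of sequence and no site was tested.

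Both chains of the simple epithelial pair were higher in each day-21 mouse than in any day-0 mouse. Krt8 (ENSMUSG00000049382.10, chromosome 15, 101996698 to 102004482, 9 exons) read 205, 151 and 143 CPM at day 0, against 387, 501 and 449 at day 21. The lowest day-21 mouse was far above the highest day-0 mouse, day 0 replicate 1. Its mean went from 167 ± 34 CPM (SD, n = 3) to 446 ± 56.8 (SD, n = 3), a log2 fold change of 1.42 with SE 0.16 (edgeR, adjusted p = 6e-05). Its type I partner Krt18 (ENSMUSG00000023043.7, chromosome 15, 102028180 to 102032027, 7 exons) had 41.9, 36.6 and 48.7 CPM on day 0 and 141, 174 and 157 on day 21. The groups were again well apart, and here day 0 replicate 1 lay between the other control mice. Krt18 rose by 1.89 on the log2 scale with SE 0.14 (edgeR, adjusted p = 4.5e-06), a 3.71-fold rise with a 95% interval of 3 to 4.58. Reads of Krt8 may be shared, since 29.7% of the 50-base words of its transcript occur in the pseudogene Krt8-ps or the antisense gene Gm36026. Krt8-ps had 0 to 3 counts on day 0 and 6 to 11 on day 21. Gm36026, a lincRNA on the other strand, overlaps 5.16% of the Krt8 exon bases. It had 327 to 467 counts on day 0 and 1185 to 1433 on day 21, and since the strand setting of the counting is not given in the sources used here, reads of the overlap cannot be assigned to one gene or the other.

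**Figure D2:**
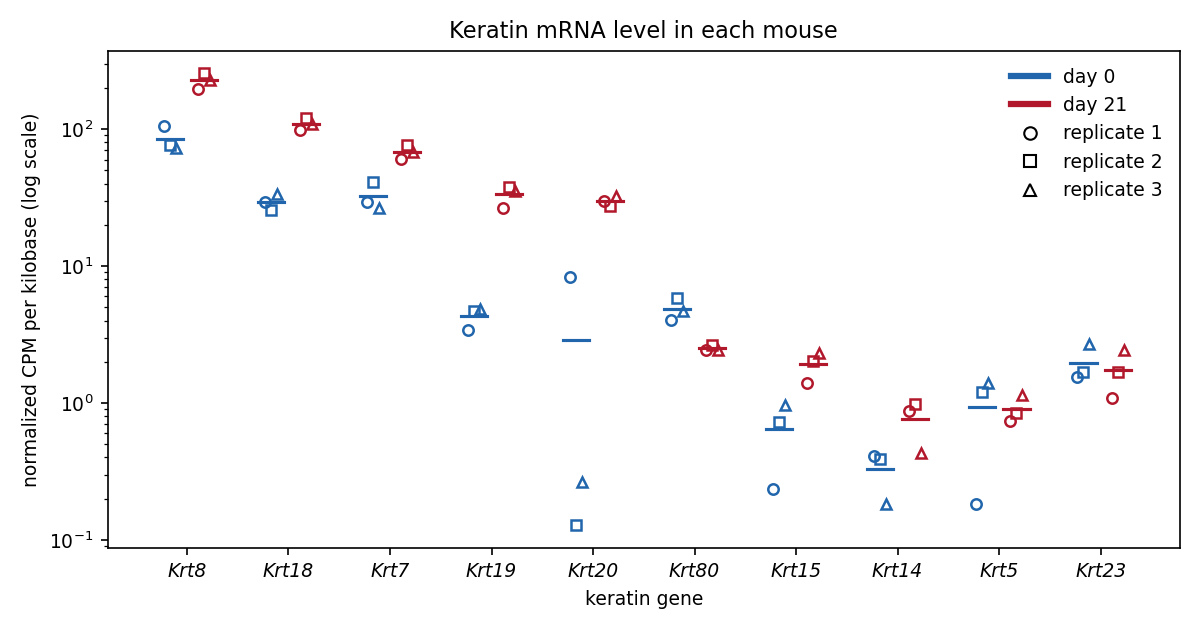
Level of each keratin in each mouse, as normalized CPM per kilobase of the longest coding transcript on a log axis; symbols are mice, and horizontal lines are group means. Krt20 of day 0 replicate 1 (8.33) sits far above the other day-0 mice (0.128 and 0.267), and the groups of Krt5 and Krt23 overlap.

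Both keratins of ducts and transitional epithelium rose as well, and Krt19 by more. Krt7 (ENSMUSG00000023039.17, chromosome 15, 101411043 to 101430313) had 119, 169 and 109 CPM on day 0 and 249, 313 and 279 on day 21, without overlap. Krt7 rose by 1.08 on the log2 scale with SE 0.17 (edgeR, adjusted p = 0.0005), the smallest of the keratins called higher. Krt19 (ENSMUSG00000020911.14, chromosome 11, 100140810 to 100148665), the short type I keratin, had 5.41, 7.42 and 7.73 CPM on day 0 and 42, 59.8 and 56.2 on day 21. The groups were parted by a wide gap and the mice of each group lay close together. Krt19 rose by 2.94 on the log2 scale with SE 0.19 (edgeR, adjusted p = 2.4e-06), or 7.66-fold with a 95% interval of 5.73 to 10.3. None of the 50-base words of its transcript occurred in another gene.

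Krt20 (ENSMUSG00000035775.2, chromosome 11, 99428403 to 99438150) had the highest estimate and the largest spread. It was counted 160, 3 and 5 times at day 0 against 814, 892 and 1020 times at day 21, that is 16, 0.247 and 0.515 CPM against 57.5, 53.2 and 62.5. The day-21 mice were alike (the highest 1.17 times the lowest), whereas day 0 replicate 1 was 64.9 times the lowest day-0 mouse, and even so the groups did not overlap. Krt20 rose by 3.40 on the log2 scale with SE 0.83 (edgeR, adjusted p = 0.0073), or 10.6-fold with a 95% interval of 2.93 to 38.1. Without day 0 replicate 1 it was 7.24 (edgeR, adjusted p = 7.2e-08), with DESeq2 in place of edgeR it was 3.35 and not called (adjusted p = 0.057), and with limma-voom it was 5.49. It was 2.79 without day 0 replicate 2 and 2.88 without day 0 replicate 3, both still called. Of the 7 markers of injured tubules, 5 were highest among the controls in that same mouse. Havcr1 read 8.12 CPM there against 2.23 and 1.55, Spp1 1614 against 752 and 513, Vcam1 29.2 against 18.6 and 16, Prom1 112 against 73.4 and 82.7, and Lcn2 7.52 against 6.76 and 5.46. Sox9 (1.1, against 0.577 and 1.34) and Cd24a (219, against 202 and 239) lay between the other controls. The part of these in the Krt20 count of that mouse was not tested.

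The basal cell keratins were low, and 1 of the 3 was called. Krt15 (ENSMUSG00000054146.8, chromosome 11, 100131758 to 100135928) was counted 4, 15 and 16 times at day 0 against 34, 58 and 64 times at day 21. The groups did not overlap in CPM (0.401 to 1.65 against 2.4 to 3.92), and Krt15 rose by 1.57 on the log2 scale with SE 0.45 (edgeR, adjusted p = 0.017). Without day 0 replicate 1 the rise was 1.17 (edgeR, adjusted p = 0.036). The call was lost without day 21 replicate 2 (edgeR, adjusted p = 0.05) or without day 21 replicate 3 (edgeR, adjusted p = 0.07). Krt14 (ENSMUSG00000045545.8, chromosome 11, 100203162 to 100207548) was counted 7, 8 and 3 times at day 0 against 21, 28 and 12 times at day 21. The mice did not overlap in CPM, with 0.309 to 0.702 against 0.735 to 1.67. Its log2 fold change was 1.19 (standard error 0.51), and the edgeR test did not call it (adjusted p = 0.081, unadjusted p = 0.042). Of the words of its transcript, 14.4% occur in Krt16 or Krt17, so reads could be split between them. Krt16 had 0 counts in each library, and Krt17 had none at day 0 and 5, 19 and 8 at day 21, beside the 21, 28 and 12 of Krt14. Krt5 (ENSMUSG00000061527.7, chromosome 15, 101707070 to 101712898), the type II partner of both, was counted 4, 32 and 30 times at day 0 against 23, 31 and 41 times at day 21. The groups overlapped, and the difference was -0.04 on the log2 scale with SE 0.55 (edgeR, adjusted p = 0.96), with an interval of 0.417 to 2.28 in fold that allows a change of either direction. It was -0.53 without day 0 replicate 1. Of the Krt5 exon bases, 5.87% lie in Gm44323 on the other strand, which had 2, 13 and 16 counts on day 0 and 7 in each day-21 mouse, so these reads cannot be told apart.

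The uroplakins, membrane proteins that define the transitional epithelium, were not among the genes called higher, which were 19.6% of all genes tested. Another 15.5% of all genes tested were called lower. Of the 4 markers of that epithelium, 0 were called higher and 1 (Upk1a, log2 fold change -1.51) was called lower by edgeR, although its groups overlapped and the call was lost with library size alone. Their summed level read 3.81, 10.9 and 17.9 CPM at day 0, against 7.63, 3.64 and 8.64 at day 21. The lowest day-0 value was that of day 0 replicate 1, the same mouse that had the fewest counts of Krt5 and Krt15 and, among the day-0 mice, the most of Krt20. In that mouse Upk3a had 7 counts, against 43 and 52 in the other day-0 mice. The mesothelial marker Upk3b had 14 there, against 59 and 83. How much of the renal pelvis or capsule each sample held is not stated, and its part in the levels of Krt5, Krt15 and Krt20 was not tested.

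**Figure D3:**
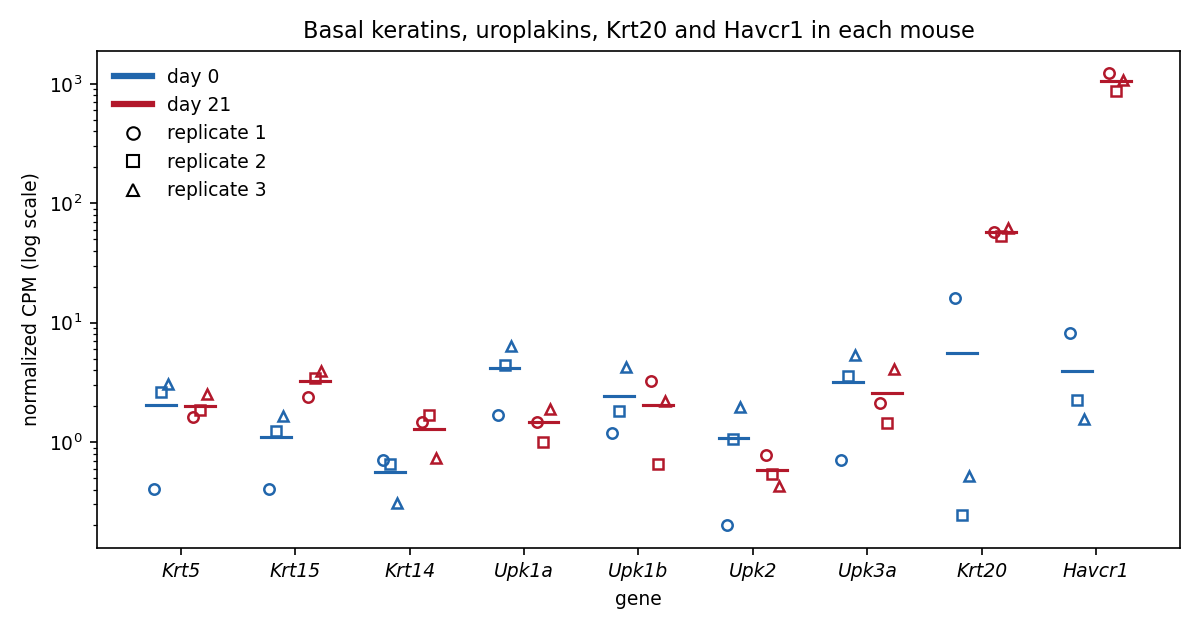
Basal keratins, uroplakins, Krt20 and the tubular injury marker Havcr1 in each mouse, as normalized CPM on a log axis; symbols are mice, and horizontal lines are group means. Day 0 replicate 1 (circles) is the lowest control mouse for Krt5, Krt15 and the 4 uroplakins, and the highest for Krt20 (16 CPM) and Havcr1.

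Of the last 2 keratins, Krt80 fell and Krt23 was not called. Krt80 (ENSMUSG00000037185.9, chromosome 15, 101347444 to 101370162), a type II keratin of differentiating epithelial cells, had 15.7, 22.9 and 18.6 CPM on day 0 and 9.54, 10.4 and 9.56 on day 21. Every day-21 mouse was below every day-0 mouse. The difference was -0.96 on the log2 scale with SE 0.17 (edgeR, adjusted p = 0.0013), so that the level on day 0 was 1.94 times that on day 21. With library size alone as the scaling, which put the median over all genes at 0.42, Krt80 was at -0.56 and was not called. On the other strand, Gm35853 covers 4.11% of its exon bases and had 59 to 63 counts on day 0 and 43 to 51 on day 21. Krt23 (ENSMUSG00000006777.7, chromosome 11, 99477974 to 99493137), a type I keratin, had 2.41, 2.64 and 4.23 CPM on day 0 and 1.7, 2.62 and 3.8 on day 21. The groups overlapped (log2 fold change -0.18, standard error 0.37, adjusted p = 0.73, edgeR), and the 95% interval of the fold, 0.496 to 1.57, covers both directions, so a change within it was not detectable here.

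Levels of different keratins were compared per kilobase of the longest coding transcript. On day 0 Krt8 led with 85 ± 17.4 CPM per kilobase (SD, n = 3), apart from Krt7 (32.4 ± 7.78) and Krt18 (29.5 ± 4.24), whose ranges overlapped. Krt80 (4.87), Krt19 (4.35), Krt20 (2.91) and Krt23 (1.97) followed, and neighbours in this order overlapped. The place of Krt20 rests on day 0 replicate 1, at 8.33, while the other control mice had 0.128 and 0.267. Krt5 (0.93), Krt15 (0.644) and Krt14 (0.328) came last, each overlapping the next. On day 21 the order was Krt8 (228 ± 29), Krt18 (109 ± 11.4), Krt7 (68.4 ± 7.78) and Krt19 (33.4 ± 5.97), and the ranges of the first 4 were apart. Krt20 (30 ± 2.41) overlapped Krt19, and Krt80 came next at 2.51 ± 0.131, with Krt15, Krt23, Krt5 and Krt14 at 1.92 to 0.764. Per kilobase of all annotated exons, which lengthens Krt7 from 4094 to 7049 bases and Krt80 from 3919 to 6393, parts of this order changed. On day 0 Krt18 (25.5 to 33.9) then lay wholly above Krt7 (15.5 to 24), and Krt80 (2.46 to 3.58) still overlapped Krt19 (2.92 to 4.17). On day 21 Krt7 (35.3 to 44.3) stayed below Krt18 and above Krt19, and Krt80 (1.49 to 1.63) was no longer apart from Krt15 (1.36 to 2.22).

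The 10 mRNAs summed to 149 to 181 CPM per kilobase in the day-0 mice and to 420 to 527 in the day-21 mice. Krt8 made up 48.7% to 57.8% of the sum on day 0 and 47.1% to 48.6% on day 21. The share of Krt19 was 1.89% to 3.3% on day 0 and 6.35% to 7.37% on day 21, and that of Krt80 was 2.21% to 3.68% and 0.504% to 0.58%. For Krt20 it was 4.59% in day 0 replicate 1, 0.0808% and 0.18% in the other controls, and 5.24% to 7.11% on day 21. Type II chains were 2.46 to 3.8 times type I chains on day 0 and 1.65 to 1.76 times on day 21, and with all annotated exons as the length 2.2 to 3.28 and 1.53 to 1.63 times. These sums and shares are descriptions of the 10 genes, given without a test.

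**Figure D4:**
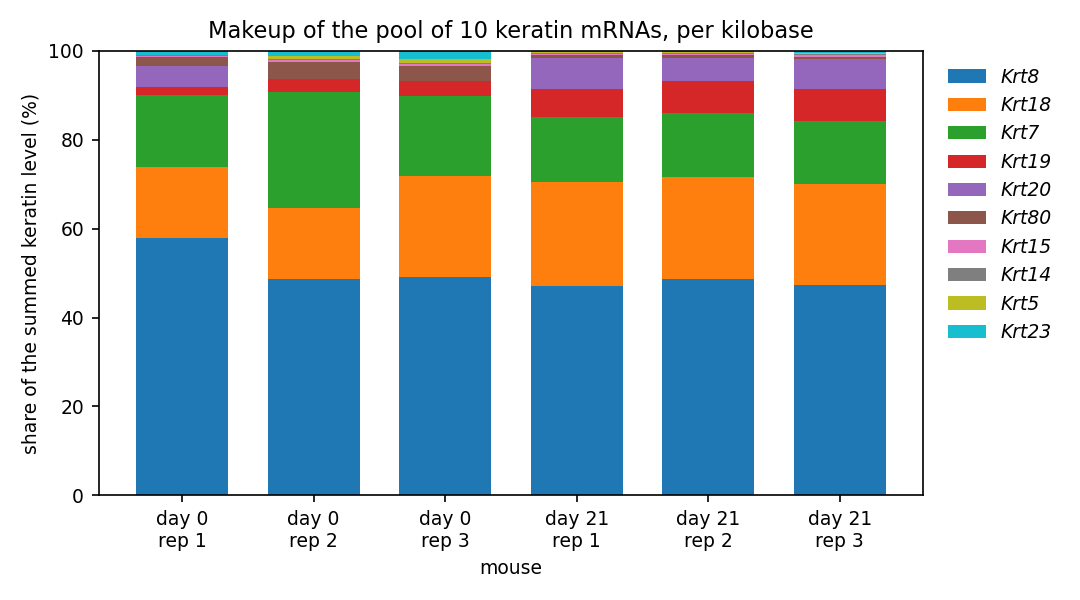
Share of each keratin (%) in the summed level per kilobase of the 10 keratins, one bar per mouse. Krt8 is the widest segment, 47.1% to 57.8%, in all 6 mice. The Krt19 and Krt20 segments are wider in each day-21 mouse than in any day-0 mouse, and among the day-0 mice Krt20 is widest in day 0 replicate 1 (4.59%).

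Since chains assemble in pairs, the ratio of a type II mRNA to a type I mRNA was taken within each library, where the scaling cancels. Krt8 was 3.59, 3.03 and 2.15 times Krt18 per kilobase at day 0, against 2.02, 2.12 and 2.1 times at day 21, so the groups just failed to overlap. The mean log2 ratio differed by -0.46 (1.52 ± 0.38 on day 0, 1.05 ± 0.04 on day 21, SD, n = 3; exact permutation test, two-sided, p = 0.1, which is the lowest value 3 mice against 3 can give). Krt7 was 8.42, 8.72 and 5.41 times Krt19 on day 0 and 2.28, 2.01 and 1.91 times on day 21. That gap was much wider than the spread between mice, with a difference in log2 ratio of -1.83 (two-sided exact permutation test, p = 0.1). For Krt5 to Krt15 the ratios were 0.774, 1.62 and 1.43 on day 0 and 0.527, 0.417 and 0.498 on day 21, also apart (difference -1.35, two-sided exact permutation test, p = 0.1). For Krt5 to Krt14 the groups overlapped (difference -0.77, two-sided exact permutation test, p = 0.6), and the difference was -1.86 without day 0 replicate 1 (exact permutation test, p = 0.2) and 0.07 without day 0 replicate 3. Without day 0 replicate 1 the differences were -0.30 for Krt8 to Krt18, -1.74 for Krt7 to Krt19 and -1.67 for Krt5 to Krt15. Adjustment over the 4 ratios cannot bring any p under 0.1.

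**Figure D5:**
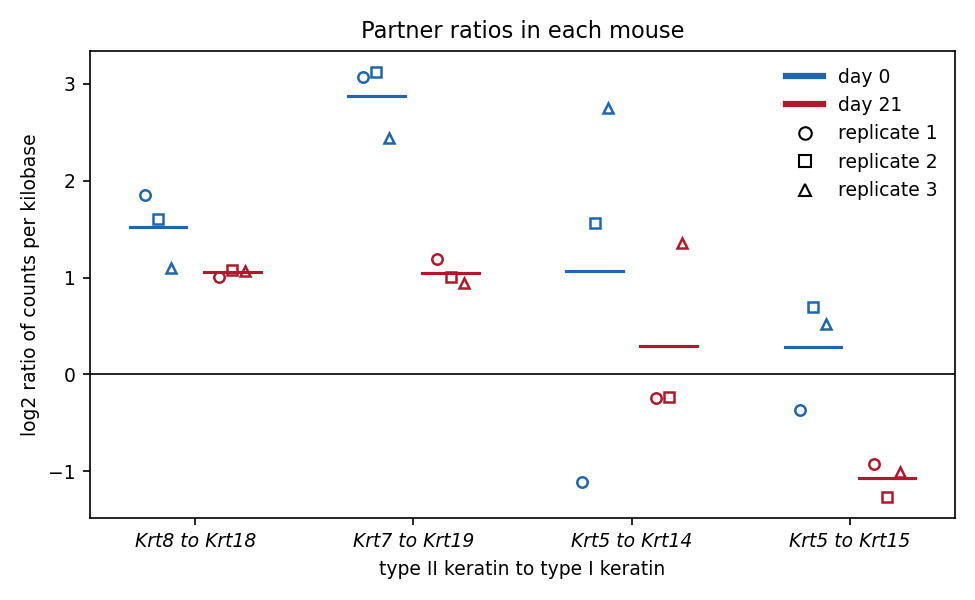
Log2 ratio of a type II to a type I keratin per kilobase in each mouse; symbols are mice, and horizontal lines are group means. The Krt7 to Krt19 ratio lies between 2.44 and 3.12 on day 0 and between 0.94 and 1.19 on day 21, and the Krt5 to Krt14 groups overlap.

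Of the 44 other keratin genes in the table, 28 had no count in any mouse, 14 had too few counts to be tested, and 2 were tested and not called. The genes without counts included Krt6a, Krt6b and Krt16, keratins of wounded skin, and most hair keratins. The 2 tested were Krt10 (log2 fold change -0.30, adjusted p = 0.37, edgeR) and Krt222 (1.15, adjusted p = 0.086, edgeR). Among those with too few counts, Krt17, a keratin of stressed and basal epithelia, was counted 0, 0 and 0 times at day 0 against 5, 19 and 8 times at day 21, at least 7.18-fold higher against a floor of 3 counts over the day-0 group. Krt12 was counted 0, 0 and 1 times at day 0 against 6, 19 and 22 times at day 21, a ratio of 31.6 with an exact 95% counting interval of 5.41 to 1.28e+03, which covers counting error only. Krt83 was counted 0, 1 and 0 times at day 0 against 5, 7 and 8 times at day 21, a ratio of 13.5 (exact 95% counting interval 2.15 to 558). Krt28 went the other way, with 3, 3 and 0 counts against 0, 2 and 1. Krt12, Krt17, Krt28 and Krt83 were singled out after their values were seen.

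Some genes of the anchoring sites of keratin were called higher, and others were called lower or not called. With library size alone as the scaling, 4 desmosomal genes were called higher and 0 lower. That scaling also gave 2 plakins higher and 1 lower, and 3 hemidesmosomal genes higher and 0 lower. The counts below, with TMM scaling, stand beside 19.6% called higher and 15.5% lower over all genes. Of 15 desmosomal genes 7 were tested, with 2 called higher, 1 lower and a median log2 fold change of 0.21. Dsg2 (1.48) and Dsc2 (1.31), the desmosomal cadherins of simple epithelia, rose, and Pkp4 (-0.86), a plakophilin relative, fell. Dsg3 and Dsc3, the cadherins of stratified epithelia, had 0 counts on day 0. Of the 7 plakins, which link filaments to junctions, Ppl rose (0.84), Dst fell (-1.27) and 5 were not called, among them Dsp (0.12) and Plec (0.13), with a median of 0.13. Of 4 hemidesmosomal genes 2 rose and 2 were not called, with a median of 1.09. Among them, Col17a1 passed the filter on low counts through its day-21 counts. Itgb4, the integrin beta chain of hemidesmosomes, had 7.29 ± 0.881 CPM on day 0 and 23 ± 4.06 on day 21 (SD, n = 3), a log2 fold change of 1.66. The hemidesmosomal collagen Col17a1 was counted 2, 1 and 0 times at day 0 against 50, 84 and 44 times at day 21, a ratio of 40 with an exact 95% counting interval of 13.5 to 196.

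Among 8 keratin-binding proteins 2 were called higher and 6 were not called, with a median of 0.20. The counts of this paragraph stand beside 19.6% called higher and 15.5% lower over all genes tested. Sfn, a 14-3-3 protein of epithelial cells that binds keratins, rose by a log2 fold change of 2.17 (standard error 0.18). Hspb1, a small heat shock protein, rose by 1.69 (standard error 0.54), with 114, 217 and 748 counts on day 0. The other intermediate filament genes had 10 of 16 tested, with 4 called higher, 0 lower and a median of 0.62. Nefl, among those called higher, had 3, 11 and 11 counts on day 0 and passed the filter on low counts only with the day-21 mice. Vim, the filament of mesenchymal cells that injured tubules also express, went from 50.7 ± 8.54 to 158 ± 15.2 CPM (SD, n = 3), a log2 fold change of 1.64, and Lmnb1, a nuclear lamin, rose by 2.00. Of 12 regulators of epithelial genes 11 were tested, with 4 called higher, 1 lower and a median of 0.34. Elf3 (1.41) and Klf4 (0.80) rose most of those called, Zfp750, a factor of squamous differentiation, fell (-1.08), and Trp63, the basal cell factor that acts on Krt5 and Krt14, was not called (0.26). With library size alone as the scaling, 4 keratin-binding genes, 8 other intermediate filament genes and 5 regulators were called higher.

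Markers of other cell types moved between the groups too. Their counts stand beside 19.6% called higher and 15.5% lower over all genes tested. All 7 markers of injured tubules were called higher, and their summed level ran from 859 to 1991 CPM on day 0 and from 20301 to 24236 on day 21. All 7 proximal tubule markers were called lower (9740 to 10905 CPM summed on day 0, 1923 to 2479 on day 21). Of the 6 leukocyte markers 5 were tested and all 5 were called higher (19 to 23.2 CPM, then 136 to 154). Of the 7 principal cell markers of the collecting duct, where Krt7, Krt8, Krt18 and Krt19 are also found, 0 were called higher and 3 lower (704 to 818 CPM, then 472 to 568), while library size alone gave 3 higher and 3 lower. Both markers of the distal convoluted tubule were lower, as were 1 of 2 of the thick ascending limb, 2 of 4 of intercalated cells and 3 of 4 of podocytes. With library size alone, 1 marker of intercalated cells and 1 of podocytes were called lower. Of the pan-epithelial genes Epcam was called higher (0.73), and Cdh1 (0.27) and Cdh16 (-0.30) were not called. Among 4 mesothelial markers Msln was called higher (2.16), Muc16 had 0 counts in all mice, and the summed level of the list overlapped between groups (2.11 to 9.38 CPM, then 3.16 to 8.09). Among these markers, Itgam, Cd3e, Sox9 and Msln passed the filter on low counts only with the day-21 mice, and Pvalb only with the day-0 mice. Passing in this way can favour a call towards the group with the counts. The part of these cell types in the keratin changes was not tested.

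For each keratin with a mean of at least 50 counts, the genes most like it over the 6 libraries were taken as those with the smallest mean absolute difference in log2 CPM, after each gene was centred on its own mean. They were Clec2d (0.0374), Selenoh and Gdf11 for Krt7, Pdzd4 (0.0661), Tagln2 and Cep85 for Krt8, and Dbf4 (0.0492), Pla2g15 and Cmtm3 for Krt18. For Krt19 they were Thy1 (0.1), Thbs2 and Arhgap11a, and for Krt80 Gm26693 (0.0459), Mecr and Iqsec2. No gene came close to Krt20, for which the nearest were Cxcl2 (0.81), Ugt1a10 and Lgi2. All points share the same 6 libraries, which fall into their 2 groups, so this measure mainly ranks genes by a like difference between the days.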

How the data were processed

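The mRNA of kidney tissue, taken from divided kidneys, was sequenced by the authors as 2 × 150 paired-end reads, and raw counts per gene and per mouse were deposited without normalization. The submitters' processing notes name TopHat and mm10, and the counting program and its strand setting are not given in the sources used here. Identifiers are those of GENCODE M21 on GRCm38. Samples were grouped by their titles, and the design text equates the control with day 0. Replicates were compared by chi-square (7.17 to 25.7 per gene within a group), and none was a duplicate.

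The statistics used R 4.3.3, with edgeR 4.0.16 for the main test (filterByExpr keeping genes at 10 counts or more, total at least 15, TMM scaling, quasi-likelihood test, Benjamini-Hochberg adjustment over 16592 genes), with limma 3.58.1 and DESeq2 1.42.0 as alternatives, and in Python 3.11.15. Calls needed a fold over 1.5 with adjusted p under 0.05. A gene could pass the filter through the libraries of a single group. Standard errors were the fold change on the log2 scale divided by the root of the F statistic. Ratios used a pseudocount of 0.5 counts, and single values were compared with a two-sided exact permutation test. Scripts were tested on simulated data. Keratins and lists were chosen with earlier results of these data known. All 10 keratins are named. Of the gene lists, the 2 called genes with the largest rise and the 2 with the largest fall are named. Others are named for their detection or because they were not called. Sprr1a, Nefl and several cell type markers, among them those of injured tubules, are named outside this rule. Alternatives were other scalings and filters, DESeq2, limma-voom, a replicate block, each mouse left out, libraries without mitochondrial or the 20 highest genes, thinning and other thresholds.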

Additional observations from a re-analysis of the deposited data

How the results depend on the processing

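Under the 19 alternatives run for the count of keratins called (7, by edgeR with TMM scaling and all mice), it stayed within 6 to 7 except with a stricter threshold (adjusted p under 0.01 and fold over 2), where it was 5. Leaving out each mouse in turn gave 6 to 7 called. Krt7, Krt8, Krt18 and Krt19 kept their direction and call under all 19. Krt15, Krt20 and Krt80 kept their direction, and lost the call under 3, 1 and 2 alternatives. One of the 19, the fit without a filter on low counts, is no check of the replicate error, because its prior degrees of freedom were infinite (6.12 with the filter), so that each gene was tested against the spread shared by all genes and not its own, and its calls add nothing here. For Krt5, which was not called (-0.04, from -0.53 to 0.32 with each mouse left out), the sign turned with upper quartile scaling (0.04), library size alone (0.35), limma-voom (0.33) and the replicate block (0.13), and without day 0 replicate 2 (0.20), day 0 replicate 3 (0.32), day 21 replicate 1 (0.09) or day 21 replicate 2 (0.02). For Krt23 (-0.18, from -0.50 to 0.09 with each mouse left out) it turned with library size alone (0.21), without day 0 replicate 3 (0.09) and without day 21 replicate 1 (0.06). Krt14 was called only with library size alone (1.58). With a mean of at least 50 counts Krt5, Krt14, Krt15 and Krt23 were not tested, and with thinning Krt14 was not. Leaving out each mouse moved the log2 ratio of Krt8 to Krt18 between -0.67 and -0.30, of Krt7 to Krt19 between -2.05 and -1.71, of Krt5 to Krt15 between -1.67 and -1.14 and of Krt5 to Krt14 between -1.86 and 0.07. Krt20 moved most, to between 2.79 and 7.24. Over all genes the stricter threshold left 1918 higher and 1254 lower, and library size alone gave 5985 and 1338. The cause was not tested. Replicate numbers do not pair mice of different days. Deviations of same-numbered mice correlated at -0.019, 0.165 and 0.0896, and not every mouse correlated best with its own number. A replicate block gave 7 keratins called, and 3235 genes higher and 2523 lower over all genes against 3249 and 2572 without it. Under it Krt20 was at 4.08 and Krt15 at 1.64, both called. The paired ratio differences are the same values by construction (-0.46, -1.83, -0.77 and -1.35). Depth limits the basal keratins most, whose mean counts were 13.2 for Krt14, 26.8 for Krt5 and 31.8 for Krt15.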

Other observations

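Genes of the cornified envelope, the protein shell of squamous cells that keratin filaments attach to, were also counted. Of 14 such genes 6 were tested, with 3 called higher, 0 lower and a median log2 fold change of 1.67. These counts stand beside 19.6% called higher and 15.5% lower over all genes tested. Sprr2f was counted 1, 0 and 0 times at day 0 against 330, 273 and 420 times at day 21. Sprr2g was counted 11, 4 and 2 times at day 0 against 208, 171 and 194 times at day 21, a log2 fold change of 4.49, and Sprr1a rose by 2.38 from 7.01 ± 3.21 to 36.2 ± 4.26 CPM (SD, n = 3). Of the structural proteins of the shell, Ivl (0.96) and Lor (-1.05) were not called, and Flg had 0 to 5 counts in every mouse. Sprr2f, Sprr2g and Ivl passed the filter on low counts through their day-21 counts. Passing in this way can favour a rise, so the median and the calls of this list are not free of the filter. The crosslinking enzyme Tgm1 was not called (0.15), at 40, 29.8 and 13 CPM on day 0, against 40.6, 21.4 and 30.5 on day 21. Small proline-rich genes share sequence with each other, and how the counting split such reads is not given in the sources used here.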
